A study of Mus musculus with 4 samples.

Results

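The mitochondrial genome was 1 of 22 sequences to which reads of this RNA polymerase II (Pol II) chromatin immunoprecipitation and sequencing (ChIP-seq) series had been aligned, and it was divided here into 326 bins of 50 bp, of 52614221 such bins over all chromosomes. A bin is the deposited read position divided by 50 and rounded down, so the bins were set by position alone and by no measured value. The members are first-category read positions on M, the name of the mitochondrial sequence on the mouse build mm8. The files do not state whether positions count from 0 or 1, and positions are given here as deposited. With 1 tag kept per position and strand, M held 1323 of 2646944 tags in the library with a hairpin against Spt4 (shSpt4), 2056 of 3116313 with a hairpin against Spt5 (shSpt5), 1080 of 2938052 with a hairpin against NelfE (shNelfE) and 893 of 3170090 with a control hairpin (shControl).

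All 4 libraries came from V6.5 mouse embryonic stem cells (C57BL/6-129 background), and the antibody bound the N-terminal part of Rpb1, the largest Pol II subunit. Every culture, the control included, carried a hairpin for about 4 days and received 1 µM flavopiridol, an inhibitor of the kinase Cdk9, for 1 h before crosslinking. The knockdown cultures had spent 2 passages off feeder cells and their libraries shared a flow cell, whereas the control culture had spent 1 passage off feeders and was sequenced on another flow cell. Hairpin, flow cell and passages therefore cannot be told apart in any ratio to shControl. With 1 library per group there is no replicate check and no p-value, and each ratio compares libraries rather than conditions. Intervals are exact 95% intervals, and they cover counting error only, not the spread between cultures or libraries. Where repeats are kept they also treat PCR copies as independent molecules, which they are not. Knockdown was not checked in these data, nor were markers of the cell type, since no gene annotation of the files' build was used.

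Mitochondrial DNA is a small circular genome present in many copies per cell, and it is transcribed on both strands by its own single-subunit polymerase, Polrmt, not by Pol II. It encodes ribosomal RNAs, transfer RNAs and subunits of the respiratory chain, and its transcription starts in or near the noncoding control region. Because of the high copy number, mitochondrial fragments are a common part of the background in chromatin preparations, and stretches of mitochondrial DNA have also been copied into nuclear chromosomes during evolution. The hairpins' targets act on paused Pol II in the nucleus: Spt4 together with Spt5 makes up the factor DSIF, and NelfE belongs to the NELF complex. In the mouse gene table at hand, which describes the assembly GRCm38.p6, the mitochondrial genome carries 37 genes: 13 protein-coding, 22 for transfer RNAs and 2 for ribosomal RNAs. Their order starts with TrnF, mt-Rnr1, TrnV and mt-Rnr2, goes on through ND1 and ND2 to COX1, COX2, ATP8, ATP6 and COX3, and ends with ND3, ND4L, ND4, ND5, ND6, CYTB, TrnT and TrnP. That table is of another build than the files, so no bin was assigned to a gene.

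The share of tags on M differed between the libraries and was lowest in shControl. It was 281.7 tags per 1000000 kept tags in shControl (263.5 to 300.8), 367.6 in shNelfE (346.0 to 390.2), 499.8 in shSpt4 (473.3 to 527.5) and 659.8 in shSpt5 (631.6 to 688.9). No pair of neighbours in this order had overlapping intervals. Relative to shControl the share was 1.30 times as high in shNelfE (1.19 to 1.43), 1.77 times in shSpt4 (1.63 to 1.93) and 2.34 times in shSpt5 (2.16 to 2.54). These 3 ratios share 1 control library. Among the libraries of 1 flow cell, shSpt5 was 1.32 times shSpt4 (1.23 to 1.42), shNelfE was 0.735 times shSpt4 (0.678 to 0.798), and shNelfE was 0.557 times shSpt5 (0.517 to 0.600).

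Nuclear windows free of enriched regions were also above the control in all 3 knockdown libraries, by less than M in shSpt4 and shSpt5. There were 557 such windows of 1 Mb. Their summed tags per 1000000 were 1.33 times the control's for shSpt4 (1.32 to 1.34), 1.56 times for shSpt5 (1.55 to 1.57) and 1.28 times for shNelfE (1.27 to 1.29). Single windows ran from 0.947 to 2.13 in shSpt4, and 8 of them (1.44%) were at or above the ratio of M. In shSpt5 they ran from 0.932 to 2.36, and 1 window (0.180%) was at or above it. In shNelfE 292 windows (52.4%) were at or above the ratio of M, so M lay in the middle of the windows there. With these windows as the scale, M stood at 1.33 times the control for shSpt4 (1.23 to 1.45), 1.50 times for shSpt5 (1.39 to 1.63) and 1.02 times for shNelfE (0.934 to 1.12). The shNelfE interval on that scale includes 1. All tags outside enriched regions together were at 1.04 times the control's share in shSpt4, 1.10 times in shSpt5 and 1.06 times in shNelfE. Scaled by those tags, M stood at 1.70 (1.56 to 1.85), 2.12 (1.96 to 2.30) and 1.23 (1.12 to 1.34) in the same order, and all 3 intervals exclude 1. Whether M in shNelfE was above the nuclear background thus depended on which nuclear tags served as the scale.

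Whole nuclear chromosomes were set beside M as well. In shSpt4 and shSpt5 the ratio of M to the control was above that of all 21 nuclear chromosomes, the highest of which was Y at 1.32 and 1.57. In shNelfE chromosome Y reached 1.31, at the level of M. The share of tags in enriched regions moved the other way: it was 20.5% for shControl, 17.1% for shSpt4, 15.6% for shNelfE and 12.4% for shSpt5. A lower share in regions by itself raises the share of everything outside them, and the scalings by windows and by tags outside regions leave the tags in nuclear regions out of the scale. No library of unprecipitated chromatin was used here, so the amount of mitochondrial DNA in the chromatin and its recovery in the precipitation cannot be told apart.

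**Figure D1:**
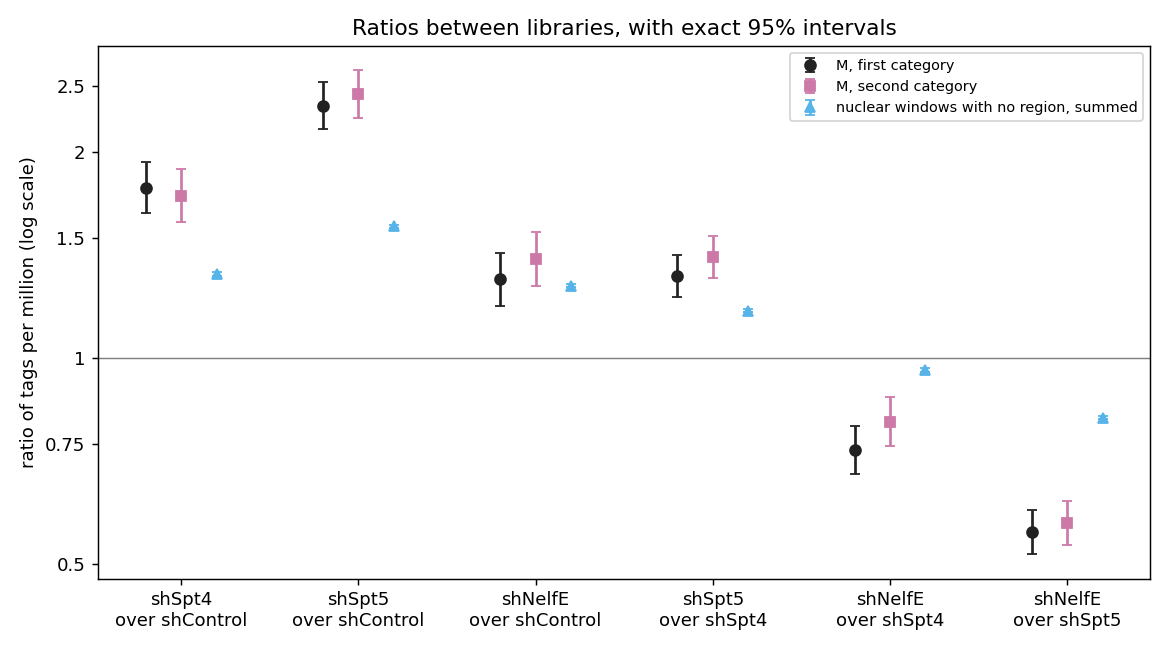
Ratio of tags per 1000000 between libraries (vertical axis, log scale) for each pair of libraries (horizontal axis), with exact 95% intervals as bars. Circles show first-category tags on M, squares second-category tags on M and triangles the summed nuclear windows without a region. M lies above the windows for shSpt4 and shSpt5 over shControl (1.77 and 2.34 against 1.33 and 1.56), and close to them for shNelfE (1.30 against 1.28).

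Tags lay on M far more densely than on nuclear DNA without regions. In the 194 bins that held a first-category tag in any library, density was 136 tags per kb for shSpt4, 212 for shSpt5, 111 for shNelfE and 92.1 for shControl. The windows without a region held 0.418, 0.578, 0.446 and 0.377 tags per kb. The windows keep their empty bins, so the like measure takes all 326 bins of M, with 81.2, 126, 66.3 and 54.8 tags per kb. By that measure M was 194 times as dense as the windows for shSpt4, 218 times for shSpt5, 148 times for shNelfE and 145 times for shControl. Over covered bins alone the factors were 326, 367, 249 and 244.

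Repeated positions were more frequent on M than on the nuclear chromosomes in shSpt4, shSpt5 and shNelfE. Tags that repeated an occupied position and strand made up 12.4% of M tags in shSpt4 (10.8 to 14.2%), against 8.13% of nuclear tags. In shSpt5 they made up 22.7% (21.1 to 24.3%) against 17.7%, and in shNelfE 13.3% (11.4 to 15.3%) against 10.2%. In shControl the share was 9.43% (7.68 to 11.4%), an interval that includes the nuclear 9.07%. None of these shares is corrected for independent tags that fall on 1 position, which are more frequent where tags are dense, as on M. How much of the excess on M they make up was not tested. With all repeats kept, M held 1511, 2659, 1245 and 986 tags in shSpt4, shSpt5, shNelfE and shControl. The ratios to shControl were then 1.85, 2.48 and 1.35 in shSpt4, shSpt5 and shNelfE, each slightly above its value with repeats removed.

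With 1 tag kept per position and strand, most slots stayed empty. The covered bins offered 19400 slots of position and strand, of which 6.82% were filled for shSpt4, 10.6% for shSpt5, 5.57% for shNelfE and 4.60% for shControl. Corrected for slots filled more than once by independent tags, M would hold 1370, 2173, 1111 and 914 tags. Of 4369 occupied positions and strands, 3504 were seen in 1 library and 8 in all 4. With so few slots filled, little recurrence is given by the filling alone. Of the positions of shSpt4, 19.5% were also held in shSpt5, which filled 10.6% of slots. In every pair of libraries the shared part was above the filled share, and the cause of this was not tested. The most tags on 1 position were 7, at position 12107 of the plus strand in shNelfE, where the other libraries had none. In shControl the most were 5, at position 6011 of the minus strand, with 1 each in shSpt4 and shNelfE and none in shSpt5.

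Tags were close to evenly divided between the strands. The plus strand held 48.5% of M tags for shSpt4 (45.7 to 51.2%), 49.8% for shSpt5 (47.6 to 51.9%), 50.3% for shNelfE (47.3 to 53.3%) and 47.8% for shControl (44.5 to 51.2%), and all 4 intervals include an even split. Single stretches of 1 kb departed from it when the libraries were pooled. The plus strand held 57.8% of tags at positions 1000 to 1999 (52.9 to 62.6%) and 58.6% at 12000 to 12999 (54.5 to 62.5%). It held 44.1% at 2000 to 2999 (40.3 to 48.0%), 43.9% at 11000 to 11999 (40.1 to 47.8%), 41.9% at 4000 to 4999 (36.3 to 47.8%), 39.7% at 16000 to 16299 (33.3 to 46.5%) and 33.3% at 6000 to 6999 (20.001 to 49.0%). Plus and minus tags on M matched most often at an offset of 85 bp, where the offset on chromosomes 11 and 19 was 84 bp. Both maxima were low, at 1.12 times the median over offsets on M and 1.18 times on those chromosomes. Counts on M were smoothed over a wider span, and the shortest offsets were not searched.

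Coverage along M was interrupted by long stretches with no first-category tag. Of the 326 bins, 155 held tags in all 4 libraries, 20 in 3, 13 in 2 and 6 in 1, and 132 held none in any. The longest empty run spanned 92 bins, from 6400 to 10999, with the last tag before it at 6392 and the first after it at 11010. The next 2 runs, of 7 bins each, were at 5400 to 5749 and at 15650 to 15999. A count of 0 allows up to 3 tags per library for counting error alone.

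**Figure D2:**
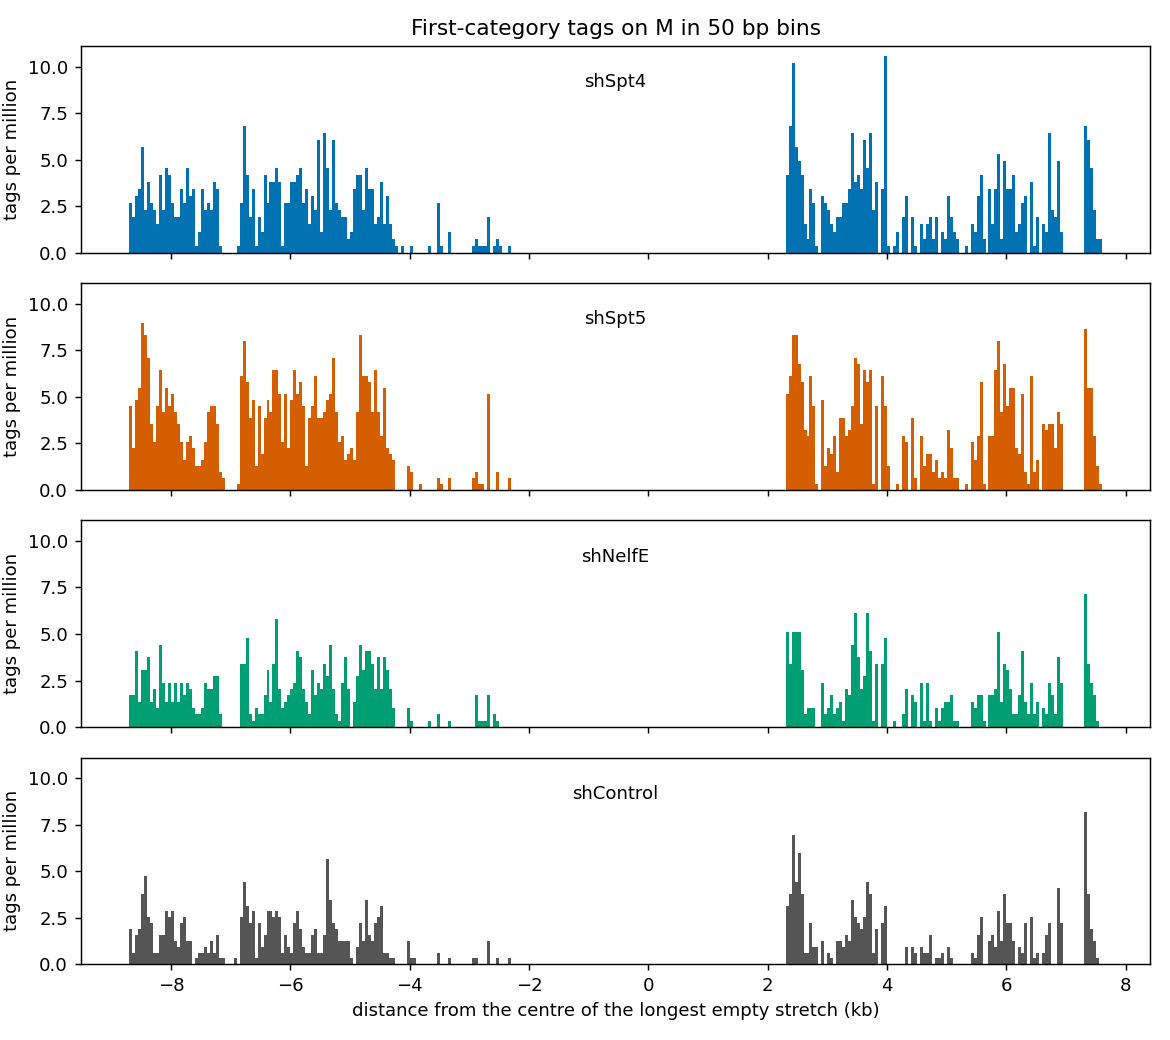
First-category tags per 1000000 kept tags (vertical axis) in each 50 bp bin of M (horizontal axis, kb from the centre of the longest empty stretch), 1 panel per library. No library has a tag over the central 92 bins; the highest bar is the bin with 28 tags in shSpt4.

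Most bins of the empty stretches held tags of the second read category. Each file splits its reads into 2 categories, and the headers do not say what separates them, although the aligner options they name admit up to 2 hits per read. Second-category lines made up 48.3% of all M lines for shSpt4, 49.7% for shSpt5, 50.7% for shNelfE and 49.0% for shControl. On the nuclear chromosomes they made up 6.92%, 6.91%, 6.92% and 6.70%. Of the 132 bins without a first-category tag, 115 held second-category tags and 17 held neither. In the longest empty run 81 of 92 bins held such tags, in sum 500 for shSpt4, 845 for shSpt5, 479 for shNelfE and 364 for shControl. Almost all of them lay at 7400 to 10999. From 6400 to 7399 no bin held more than 2 second-category tags in any library. Within that part, 6800 to 6999, 7050 to 7199 and 7300 to 7399 held none, so it stayed nearly empty in both categories.

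Most second-category tags on M had a partner tag at a matching position on a nuclear chromosome. Of 5217 such tags over the 4 libraries, 4692 (89.9%) fell on 7 pairs of stretches in which a nuclear tag of the same library matched each M tag. In the same orientation the difference of the paired positions was constant, and in opposite orientation their sum. The sides differed slightly in length for chromosome 1 (4532 and 4533 bp) and chromosome 4 (2676 and 2678 bp), so there the constant shifted within the pair. The share was 89.9% in shSpt4, 90.0% in shSpt5 and shNelfE and 89.8% in shControl. The largest pair joined M 6479 to 11010 in opposite orientation with chr1:24565805-24570337 and held 2199 tags, or 99.7% of the second-category tags of the nuclear stretch. Its M side covered nearly all of the longest empty run and held 1 first-category tag. The second joined M 4448 to 6387, also in opposite orientation, with chr2:22440198-22442137 and held 1156 tags, which were all the second-category tags on both sides. Here M held 112 first-category tags and the chromosome 2 stretch none. Another pair joined M 12647 to 15322 with chr4:79473720-79476397 in the same orientation (760 tags), and smaller ones lay on chromosome 13 (292), chromosome 10 (191), chromosome 18 (58) and chromosome 9 (36). The chromosome 9 stretch was 12 bp long and only 52.2% of its nuclear tags were paired. The sequences themselves were not compared here, because no genome of the files' build was used.

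**Figure D3:**
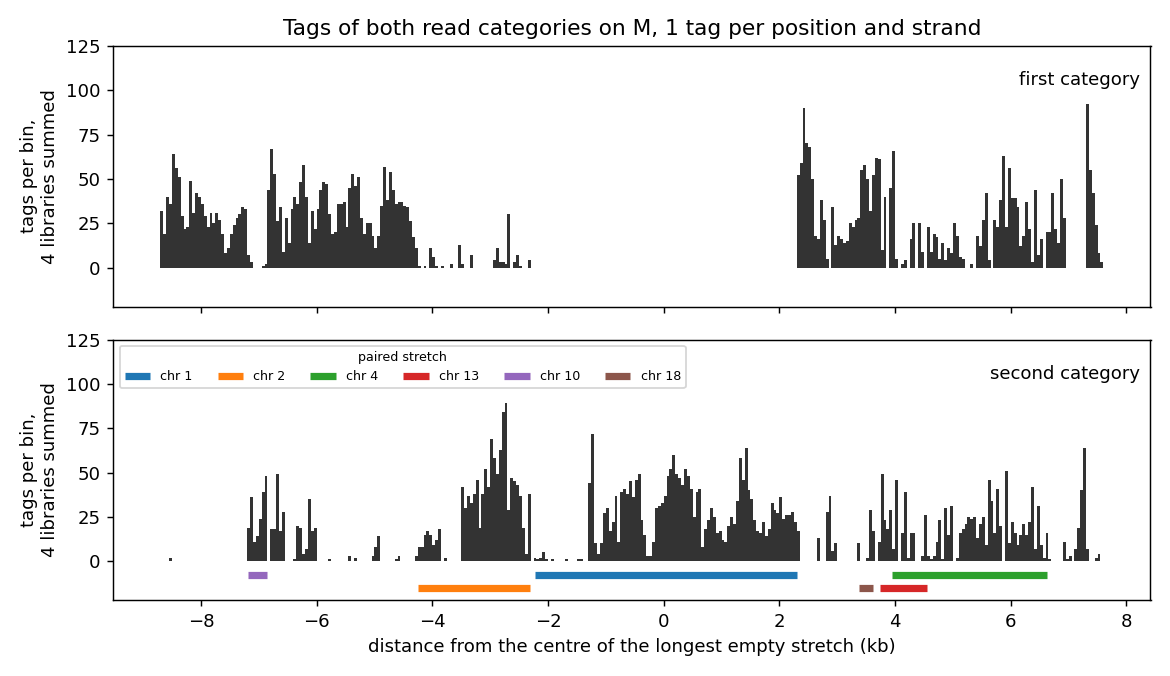
Tags per 50 bp bin of M summed over the 4 libraries (vertical axes), first category above and second category below, against distance in kb from the centre of the longest empty stretch (horizontal axis). Coloured lines mark the M side of the paired stretches over 100 bp; the chromosome 1 line, with 2199 paired tags, spans the stretch that has no first-category tag.

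The second category gave ratios close to those of the first, from other lines of the same files. M held 1229 second-category tags for shSpt4, 2035 for shSpt5, 1102 for shNelfE and 851 for shControl, with 1 tag kept per position and strand. Relative to shControl they were at 1.73 for shSpt4 (1.58 to 1.89), 2.43 for shSpt5 (2.24 to 2.64) and 1.40 for shNelfE (1.28 to 1.53). Scaled by the windows without a region these were 1.30, 1.56 and 1.09, and the shNelfE interval on that scale ran from 0.999 to 1.20. In the chromosome 1 pair alone, with 501, 847, 481 and 370 tags in shSpt4, shSpt5, shNelfE and shControl, the ratios were 1.62 (1.41 to 1.86), 2.33 (2.06 to 2.64) and 1.40 (1.22 to 1.61). Whether a single paired line came from M or from the nuclear stretch cannot be told apart. The chromosome 1 pair held 111, 187, 106 and 81.6 paired tags per kb in shSpt4, shSpt5, shNelfE and shControl. The nuclear windows without a region held 0.418, 0.578, 0.446 and 0.377. The origin of the paired tags as a set was not tested.

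With both categories counted, M was covered more evenly. Bins without a tag fell from 139 to 26 for shSpt4, from 141 to 29 for shSpt5, from 150 to 33 for shNelfE and from 162 to 43 for shControl. Bins with the second category alone held a mean of 6.23, 10.3, 5.65 and 4.36 tags in shSpt4, shSpt5, shNelfE and shControl. Bins with the first category alone held 8.37, 12.9, 6.82 and 5.62, so the stretch seen only through the second category was somewhat less dense in every library. The lowest 1 kb stretch held 71, 134, 59 and 52 tags, and the highest 243, 393, 195 and 156.

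First-category coverage was uneven along M in a way the libraries shared. A covered bin held a median of 6 tags for shSpt4, 10 for shSpt5, 5 for shNelfE and 4 for shControl, and the fullest held 28, 28, 21 and 26. The variance over bins was 3.56, 4.64, 3.41 and 4.17 times the mean, where counting error alone gives a value near 1. Over the 194 covered bins, Pearson correlations between pairs of libraries ran from 0.720 to 0.763 and Spearman correlations from 0.738 to 0.811. These bins share the aligner, its handling of repeated sequence and base composition, and they are not replicates.

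The fullest bin over the libraries was 16000 to 16049, next to an empty run near the end of the deposited coordinates. It held 18 tags for shSpt4, 27 for shSpt5, 21 for shNelfE and 26 for shControl, or 6.80, 8.66, 7.15 and 8.20 tags per 1000000 kept tags. It was the fullest bin in shControl and shNelfE, and its ratios to shControl were 0.829 (0.428 to 1.57), 1.06 (0.593 to 1.88) and 0.871 (0.466 to 1.61) in shSpt4, shSpt5 and shNelfE. Relative to each library's own M total, those ratios were 0.467 (0.241 to 0.886) for shSpt4, 0.451 (0.253 to 0.804) for shSpt5 and 0.668 (0.357 to 1.23) for shNelfE. The second, 11100 to 11149, just past the longest empty run, held 27, 26, 15 and 22 tags, and bins 11150 to 11199 and 11200 to 11249 beside it were also among the 10 fullest. Bin 12650 to 12699 was the fullest bin of shSpt4, with 28 tags against 14 in shSpt5, 14 in shNelfE and 10 in shControl. Its ratio of shSpt4 to shControl was 3.35 (1.58 to 7.74). Relative to each library's own M total it was 1.89 (0.891 to 4.36), an interval that includes 1. Bins 1900 to 1949, 200 to 249, 14550 to 14599, 12350 to 12399 and 12400 to 12449 completed the 10 fullest.

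The 10 fullest bins took a larger share of M in shControl than in shSpt5. They held 13.4% of M tags for shSpt4 (11.6 to 15.3%), 11.2% for shSpt5 (9.86 to 12.6%), 13.3% for shNelfE (11.4 to 15.5%) and 17.0% for shControl (14.6 to 19.6%). The bins were chosen on the mean of these same libraries. The coefficient of variation over covered bins was also lowest in shSpt5 and highest in shControl, at 0.722, 0.662, 0.782 and 0.952 in shSpt4, shSpt5, shNelfE and shControl. Fewer tags per bin by themselves raise this coefficient, and libraries were not thinned to equal depth for it.

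The region recipe applied genome-wide found 5 enriched stretches on M, together 123 bins, beside 14115 nuclear regions. The stretch at 1750 to 4399 held 412 tags for shSpt4, 696 for shSpt5, 360 for shNelfE and 291 for shControl, with ratios to shControl of 1.70, 2.43 and 1.33. The stretch at 10850 to 12799 held 326, 444, 249 and 224 tags (1.74, 2.02 and 1.20). Those at 50 to 799 and 14400 to 14899 had ratios of 1.47 and 1.77 for shSpt4, 2.43 and 2.77 for shSpt5, and 1.08 and 1.26 for shNelfE. The last, at 15900 to 16199, held 53, 67, 41 and 48 tags and had the lowest ratios, 1.32 (0.878 to 1.997), 1.42 (0.966 to 2.10) and 0.922 (0.592 to 1.43). These stretches mark dense tags against their surroundings, and the gaps of the first category are part of those surroundings.

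M tags outside the enriched stretches had higher ratios to shControl than those inside. Inside, the ratio was 1.66 for shSpt4 (1.51 to 1.83), 2.26 for shSpt5 (2.07 to 2.47) and 1.22 for shNelfE (1.10 to 1.35). Outside, it was 2.25 (1.87 to 2.72), 2.68 (2.24 to 3.21) and 1.64 (1.35 to 2.001), from 327, 458 and 265 tags against 174 in shControl. The intervals inside and outside did not overlap for shSpt4 and overlapped for shSpt5 and, narrowly, for shNelfE. The stretches were found in these same libraries. Their share of M was 75.3% for shSpt4, 77.7% for shSpt5, 75.5% for shNelfE and 80.5% for shControl (77.8 to 83.1%).

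In stretches of 1 kb the ratio to shControl was above 1 nearly everywhere that M held first-category tags. Of the 17 stretches, 13 held first-category tags, and it was above 1 in 13 of 13 for shSpt4, 13 of 13 for shSpt5 and 12 of 13 for shNelfE. The interval lay above 1 in 11, 12 and 6 of them. In shSpt5 the ratio ran from 1.56 at 16000 to 16299, a stretch of 300 bp, to 3.56 at 6000 to 6999, where 21 tags stood against 6. In shSpt4 it ran from 1.37 at 16000 to 16299 to 4.31 at 5000 to 5999 (18 tags against 5). In shNelfE it ran from 0.969 to 2.59 over the same 2 stretches. Relative to the M total, the interval excluded 1 against shControl in 1 stretch, 16000 to 16299 in shSpt5, at 0.665 (0.458 to 0.973).

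**Figure D4:**
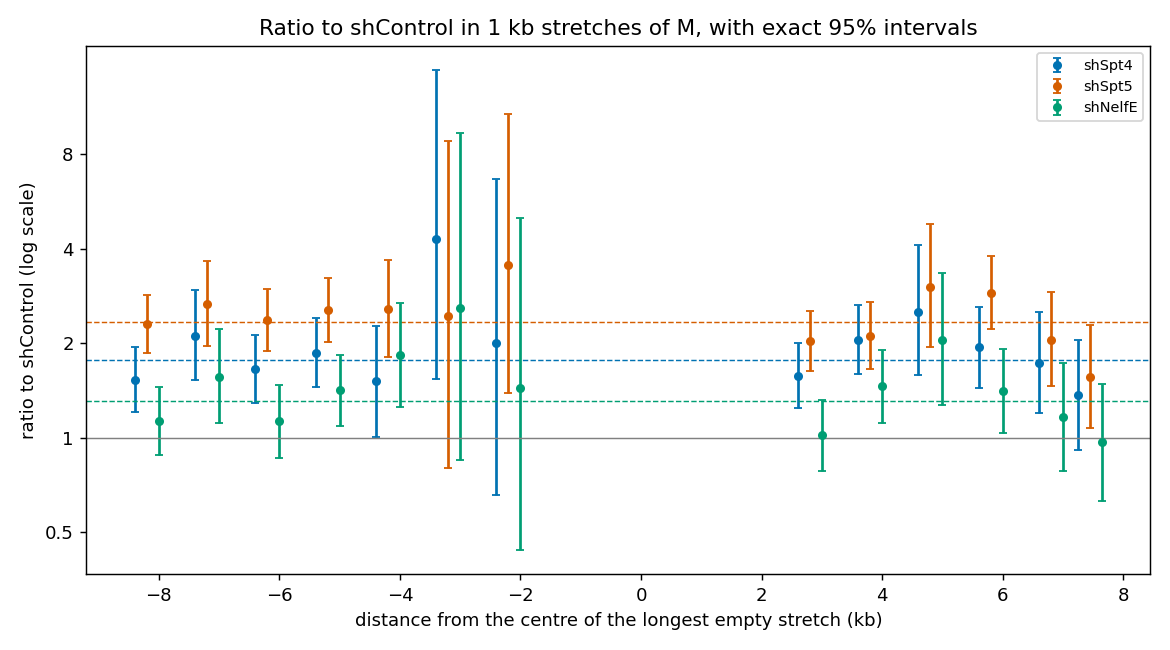
Ratio of tags per 1000000 to shControl (vertical axis, log scale) in 13 stretches of M of 1 kb (the last is 300 bp), against distance in kb from the centre of the longest empty stretch, with exact 95% intervals; dashed lines mark the ratio of M as a whole, 1.77 for shSpt4, 2.34 for shSpt5 and 1.30 for shNelfE. The widest intervals, next to the empty stretch, rest on 5 and 6 control tags.

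Bin by bin, the bins of M called different from shControl were nearly all higher in the knockdown library, with few calls in shNelfE. Bins with at least 10 tags in a pair of libraries were called where libraries differed by a ratio of 2 or more, or of 0.5 or less, with an interval that excluded 1. In shSpt5, 49 of 124 bins of M (39.5%) were called higher than shControl and none lower, where 0.581% of nuclear bins were called higher and 16.6% lower. In shSpt4, 11 of 102 bins (10.8%) were higher and none lower, beside 0.854% and 4.44% of nuclear bins. In shNelfE, 4 of 90 (4.44%) were higher and 1 lower, beside 0.487% and 5.76%. Of the nuclear bins with that many tags, 99.4% overlapped an enriched region in the comparisons of shSpt4 and of shSpt5 and 99.3% in that of shNelfE, so this background describes enriched regions. Without the thresholds on ratio and interval, the ratio was above 1 in 120 of these 124 bins in shSpt5. It was above 1 in 90 of 102 in shSpt4 and in 59 of 90 in shNelfE. The medians were 2.33, 1.63 and 1.26 in that order. The filter of 10 tags in the pair still applied, and bins high in the knockdown library pass it more easily. Bin 15450 to 15499, with 11 tags in shSpt5 and 0 in shControl, passed through shSpt5 alone. These shares are therefore no test of direction.

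Among the knockdown libraries, 6 of 143 bins of M were called higher in shSpt5 than in shSpt4 and 1 lower, beside 0.331% and 7.66% of nuclear bins. Of 114 bins, none was higher and 6 were lower in shNelfE than in shSpt4, beside 0.908% and 2.92%. Of 133 bins, none was higher and 28 (21.1%) were lower in shNelfE than in shSpt5, beside 5% and 0.859%. The direction of each set is that of the M total.

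Relative to each library's own M total, few bins stood apart. Calls in either direction numbered 5 of 102 for shSpt4 (4.90%), 6 of 124 for shSpt5 (4.84%) and 3 of 90 for shNelfE (3.33%) against shControl. Nuclear bins scaled by their own chromosome were called at 5.01%, 16.7% and 6.06%. Among the knockdowns the calls were 4 of 143 for shSpt5 over shSpt4, 1 of 114 for shNelfE over shSpt4 and 3 of 133 for shNelfE over shSpt5, beside 7.69%, 3.82% and 5.97% of nuclear bins. The share on M was level with its background for shSpt4 over shControl (4.90% beside 5.01%) and below it in the other pairs. These shares rest on 1 to 6 called bins each. Nearly all nuclear bins tested lay in enriched regions, so the background is not one of bins like those of M. With repeats kept there were more calls, on M and on the nuclear chromosomes alike. They were 8 of 111 bins of M in shSpt4 (7.21%), 12 of 133 in shSpt5 (9.02%) and 7 of 99 in shNelfE (7.07%) against shControl, beside 9.42%, 24.8% and 10.8% of nuclear bins. Among the knockdowns they were 8 of 144, 4 of 120 and 4 of 142 in the order above (5.56%, 3.33% and 2.82%), beside 13.6%, 6.8% and 11.6%.

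The intervals of the bins called on this scale are not adjusted for choosing extremes, and the higher calls against shControl rested on few control tags. Bin 3150 to 3199 held 16 tags for shSpt4, 12 for shSpt5, 7 for shNelfE and 2 for shControl, and the ratio of shSpt4 to shControl relative to the M total was 5.40 (1.27 to 48.4). Bin 14950 to 14999 held 7, 16, 12 and 2 tags, with 4.96 (1.10 to 45.6) for shNelfE. At 15450 to 15499, shSpt5 held 11 tags and shControl none. Relative to the M total, the exact interval of that ratio starts at 1.09 and has no upper limit. Against a floor of 3 tags in the control library the ratio would be 1.59, with the counting error of the 11 tags left out.

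The fullest bin, 16000 to 16049, was among those called lower, in shSpt4 and in shSpt5, with the values given above. Bin 3300 to 3349 was called lower in all 3 knockdown libraries, with 12 tags for shSpt4, 15 for shSpt5, 8 for shNelfE and 18 for shControl. Its ratios to shControl relative to the M total were 0.450 (0.198 to 0.987), 0.362 (0.170 to 0.761) and 0.367 (0.138 to 0.888), and they share that 1 control count. Bin 250 to 299 held 6 tags for shSpt4 against 26 for shSpt5, 9 for shNelfE and 15 for shControl. It was called lower in shSpt4 than in shControl (0.270, 0.0858 to 0.736) and higher in shSpt5 than in shSpt4 (2.79, 1.12 to 8.28). Bin 2050 to 2099 held 1 tag for shNelfE against 9 for shSpt4, 15 for shSpt5 and 9 for shControl, and was called lower for shNelfE against each of them. The ratios were 0.136 (0.00311 to 0.982) to shSpt4, 0.127 (0.00301 to 0.825) to shSpt5 and 0.0919 (0.00210 to 0.663) to shControl.

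The other called bins lay across M. Bin 11200 to 11249, with 13 tags in shSpt4, 21 in shSpt5 and 19 in shControl, was lower than shControl in shSpt4 (0.462, 0.210 to 0.986) and in shSpt5 (0.480, 0.246 to 0.944). Bins 900 to 949 and 15000 to 15049 were lower in shSpt5 than in shControl, with 5 tags against 8 and 3 against 7. Between shSpt5 and shSpt4, bin 4100 to 4149 was higher (20 tags against 4), and bins 12650 to 12699 (14 against 28) and 15400 to 15449 (11 against 17) were lower. Between shNelfE and shSpt5, bin 3600 to 3649 was higher (11 against 5) and bin 14800 to 14849 lower (2 against 17).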

How the data were processed

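The deposited values were signed read positions, 1 per aligned read with the sign giving the strand and no normalization, in 2 read categories per library, per the file headers. Bowtie, whose version is not given, had placed the reads on mm8 with the options -n 2, -l 36, -e 70, -k 2 and -m 2, per the same headers and the submitters' processing notes. From the first category, 1 tag per position and strand was kept and counted in 50 bp bins and 1 kb stretches, scaled per 1000000 kept tags. Shares have Clopper-Pearson intervals, and ratios have exact intervals from 1 count given the sum of both (SciPy 1.17.1). Enriched regions were called on libraries thinned to equal depth and pooled, in 250 bp windows on a 50 bp grid at a Poisson p of 1e-9, merged within 500 bp, with tags moved by 42 bp. Windows of 1 Mb with no region and at least 100 pooled tags served as nuclear comparison. Second-category tags were paired at a constant difference of positions (same orientation) or a constant sum (opposite orientation), with at least 10 pairs and steps of at most 300 bp. The scripts were tested on simulated data. Named bins were the 10 fullest, the 3 longest empty runs and, per pair of libraries, the 3 highest and 3 lowest called relative to the M total. Members and lists were chosen with earlier results of these data known. Alternatives are in the closing section.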

Additional observations from a re-analysis of the deposited data

How the results depend on the processing

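No ratio of M changed direction under the alternatives run. Adding second-category lines at a weight of 0.5 gave M shares of 708, 953, 537 and 403 tags per 1000000 in shSpt4, shSpt5, shNelfE and shControl, and keeping repeats gave 702 in shSpt5. Scaling by windows without a region gave ratios to shControl of 1.33, 1.50 and 1.02 in shSpt4, shSpt5 and shNelfE, and among the knockdowns 1.12 for shSpt5 over shSpt4 and 0.680 for shNelfE over shSpt5. Scaling by tags outside regions gave 2.12 in shSpt5, 1.70 in shSpt4 and 1.23 in shNelfE. M outside its enriched stretches gave 2.25, 2.68 and 1.64 to shControl, 1.19 for shSpt5 over shSpt4 and 0.614 for shNelfE over shSpt5. The following were chosen after seeing the data. Windows with repeats kept gave 1.38, 1.58, 1.04, 1.15 and 0.660 in that order. The second category alone gave 0.808 for shNelfE over shSpt4. The second category scaled by windows gave 1.30, 1.56 and 1.09 to shControl, 1.20 for shSpt5 over shSpt4, 0.840 for shNelfE over shSpt4 and 0.701 for shNelfE over shSpt5. Bin calls by total tags, with repeats kept, became 19 of 111 bins in shSpt4, 72 of 133 in shSpt5 and 4 of 99 in shNelfE over shControl. Among the knockdowns they became 11 of 144 for shSpt5 over shSpt4, 10 of 120 for shNelfE over shSpt4 and 40 of 142 for shNelfE over shSpt5. With at least 20 tags in the pair they became 4, 27 and 1 against shControl, 3 for shNelfE over shSpt4 and 17 for shNelfE over shSpt5, as fewer bins were tested. Bins moved by 25 bp gave 11 for shSpt5 over shSpt4. Calls relative to the M total became 8, 12 and 7 against shControl with repeats kept, 8 for shSpt5 over shSpt4 and 4 for shNelfE over shSpt4. With at least 20 tags they became 3 in shSpt5 and 1 in shNelfE against shControl, and 0 for shNelfE over shSpt4 and over shSpt5. With bins moved they became 2 in shSpt5, 1 in shNelfE, 4 for shNelfE over shSpt4 and 5 for shNelfE over shSpt5. With tags moved toward the fragment centre they became 1, 3 and 5 against shControl and 0 for shNelfE over shSpt4. Apart from calls relative to the M total with repeats kept, nuclear shares under these settings are not given here. The counts alone are no result about M. The cause of the other changes was not tested. No paired analysis was possible because each group held 1 library. A median of 4 tags per covered bin in shControl limits single bins more than the M total.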
